A study of Mus musculus with 6 samples.

Results

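The nonsense-mediated decay (NMD) factors described here are the UPF proteins UPF1, UPF2, UPF3A and UPF3B and the SMG proteins SMG1, SMG5, SMG6, SMG8 and SMG9. Their transcripts were found by gene name, 9 genes of 55421 in the expression table, and all 9 were abundant enough to be tested. RNA-seq was done on splenic B cells kept for 24 h in 5 μg/ml of LPS with 5 ng/ml of IL-4, which activate B cells in culture, with 3 libraries per genotype. The control mice carried CD21-cre (WT), and the hnRNPL-deficient mice, hnRNPL F/F CD21-cre, carried in addition conditional alleles of *Hnrnpl*, the gene of an RNA-binding protein. According to the study's methods, both genotypes also carried the Rosa mT/mG reporter on a C57BL6/J background, and GFP+ cells, those in which cre had acted, were sorted before RNA extraction. CD21-cre acts in mature B cells, so deletion is directed at these cells and not at early B cell precursors. Male and female mice over 6 weeks old were used in the study, and the labels give no age or sex for single libraries.

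NMD removes mRNAs on which a ribosome terminates too early. UPF1 is an RNA helicase recruited at the stop codon, UPF2 joins it to UPF3A or UPF3B, and UPF3B contacts the exon junction complex that splicing leaves behind. The kinase SMG1, held in check by SMG8 and SMG9, phosphorylates UPF1, after which the endonuclease SMG6 cuts the mRNA or the adaptor SMG5 helps to recruit decapping and deadenylation enzymes. Several of these factors are encoded by mRNAs that are NMD targets themselves. In B cells the pathway clears the nonproductive immunoglobulin transcripts that V(D)J recombination yields. hnRNPL binds CA-rich RNA, regulates splicing, and has been described as shielding some mRNAs from NMD when it binds downstream of the stop codon. The comparison asks whether activated B cells without hnRNPL hold different amounts of the NMD factor transcripts.

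The libraries held 40395186 to 75180749 reads on genes, and 678 to 31766 reads on a single NMD factor. Values are the authors' normalized counts, reads divided by a size factor per library. *Hnrnpl* stood at 24371, 25579.7 and 24174 normalized counts in WT and at 2178, 1519 and 1297 in hnRNPL-deficient libraries, or 6.74% of the WT mean. The 6 B cell markers summed to 274249 to 350783 in WT and 266462 to 312659 in hnRNPL-deficient libraries, and the 4 T cell markers to at most 11.7. The 4 myeloid markers summed to 260 to 331 against 1239 to 1382, almost all of it *Adgre1*, while *Lyz2* had at most 2.02. Plasma cell markers (14104 to 16379 against 13359.7 to 16501) and red cell lineage markers (12.2 to 20.9 against 39.7 to 59.6) complete the lists. Most of the red cell sum was *Hbb-bt*, with means of 12.2 in WT and 44.1 in hnRNPL-deficient libraries. *Hba-a1* had means of 2.63 and 1.24, and *Alas2* of 1.66 and 2.0. *Xist*, the X-inactivation RNA, had 98507 normalized counts in WT library 3, 98219.3 in hnRNPL-deficient library 2 and at most 7.2 in the others. The samples are bulk RNA, in which fewer cells of a type and less RNA per cell cannot be told apart.

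No NMD factor transcript changed by the study's thresholds, at least 1.5-fold with an adjusted p under 0.1. limma called 0 of 9 in either direction, where it called 11.4% of the 17640 genes tested (7.28% higher and 4.08% lower in hnRNPL-deficient cells). Without the fold threshold it again passed 0 of 9, against 18.0% of all genes. At an unadjusted p under 0.05 the numbers were 0 of 9 and 27.4%. edgeR and DESeq2 were run on 5 libraries, without hnRNPL-deficient library 2, whose column an automatic test for whole reads did not read. They likewise called 0 of 9, with 0 at an unadjusted p under 0.05. Log2 fold changes are hnRNPL-deficient minus WT, from limma on the log2(normalized count + 1) scale unless edgeR or DESeq2 is named, whose values come from models of the reads. Those of the 9 factors ran from -0.14 (*Upf3a*) to 0.32 (*Smg9*). Their median was 0.03, beside -0.03 over all genes tested, and 7 were positive. In absolute size 8 of 9 lay below the median of all genes tested. The 95% interval of the fold lay within 1.5-fold in both directions for 8 of the 9, *Smg9* being the exception, and for 34.4% of all genes. The WT and hnRNPL-deficient values did not overlap for 1 of 9, *Smg6*, and for 34.0% of all genes.

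**Figure D1:**
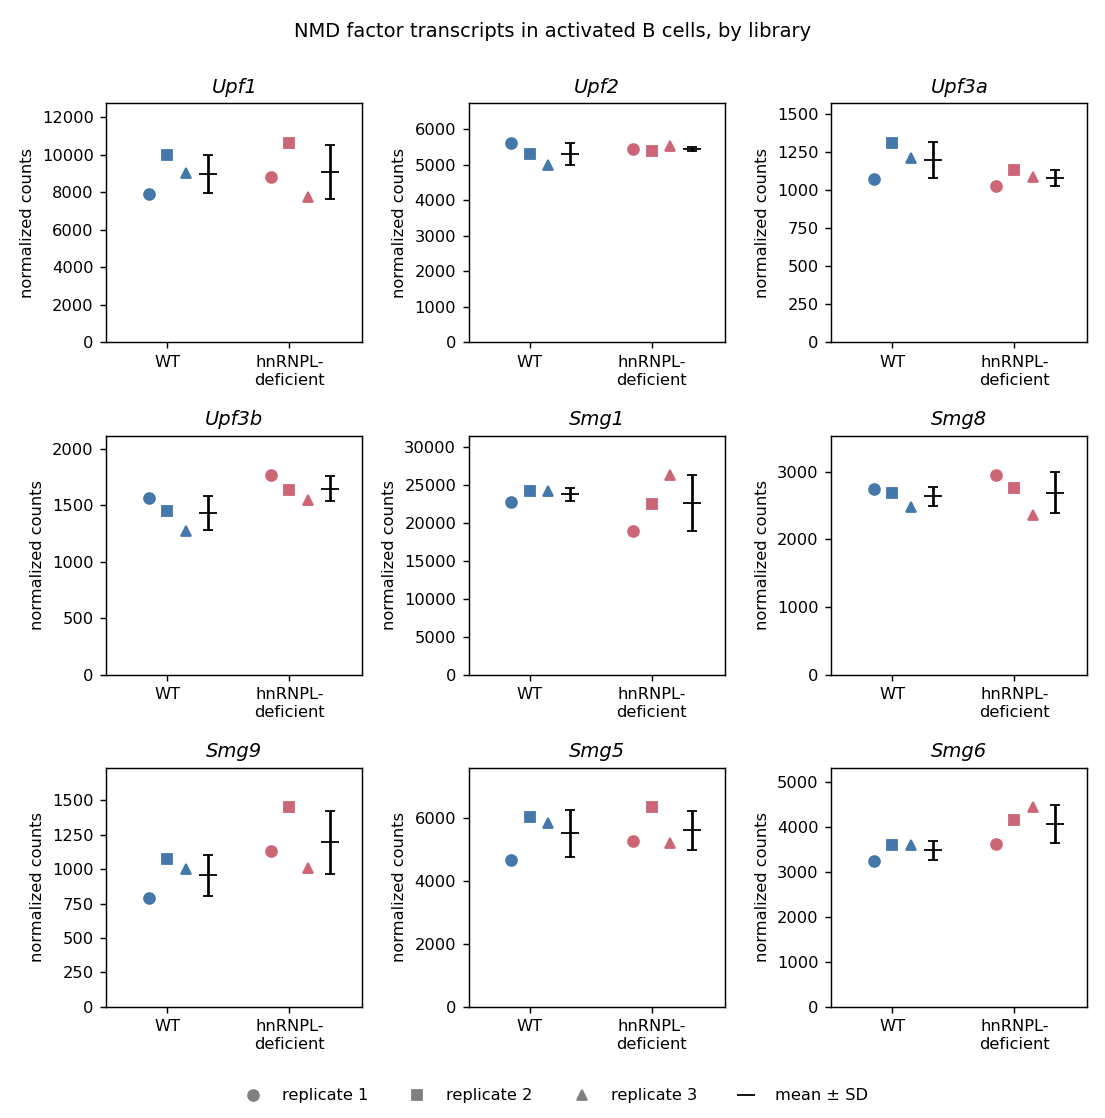
Normalized counts (vertical axes, each from 0) of the 9 NMD factor transcripts in the 3 WT (blue) and 3 hnRNPL-deficient (red) libraries, with marker shapes for replicate number and bars for mean ± SD. The groups overlap in every panel but that of *Smg6*, where the lowest hnRNPL-deficient value, 3613, lies just above the highest WT value, 3607.

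**Figure D2:**
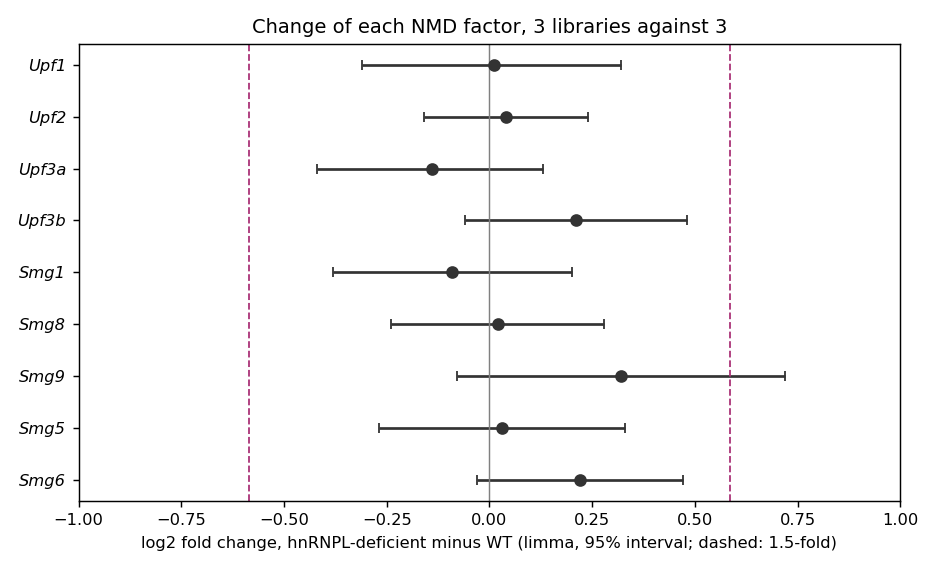
Log2 fold change of each NMD factor, hnRNPL-deficient minus WT (points), with the 95% interval from limma on 3 libraries per group (bars) and dashed lines at 1.5-fold. Every interval includes 0, and that of *Smg9* alone extends past a dashed line.

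*Upf1* encodes the helicase at the centre of the pathway. Its gene lies on chromosome 8, 70331525 to 70353278, minus strand (all coordinates are GRCm38), and its representative transcript has 24 exons. WT libraries gave 7927, 9985 and 9009 normalized counts, and hnRNPL-deficient libraries 8811, 10610.4 and 7767. The lowest and the highest of the 6 values were both from hnRNPL-deficient cells, and the group means, 8974 ± 1029 and 9063 ± 1438 (SD, n = 3 libraries each), lay well within the spread. The log2 fold change was 0.01 (standard error, SE, 0.138, limma adjusted p = 0.975), and the 95% interval of the fold ran from 0.81 to 1.25.

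*Upf2* encodes the bridge between UPF1 and the UPF3 proteins, on chromosome 2, 5951469 to 6056703, plus strand (22 exons). It had 5609.9, 5320 and 5004 normalized counts in WT and 5435, 5398 and 5521 in hnRNPL-deficient libraries. The WT values enclosed the hnRNPL-deficient ones, which had the smallest relative spread of any NMD factor in either group (a coefficient of variation, the SD as a percentage of the mean, of 1.16%). The fold change on the log2 scale was 0.04 (SE 0.0889, limma adjusted p = 0.81). Its interval was the narrowest of the 9 factors, 0.89 to 1.18-fold.

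The paralogs UPF3A and UPF3B compete for UPF2, and UPF3B is generally the more active in NMD. *Upf3a* (chromosome 8, 13785615 to 13799193, plus strand) had 1072, 1309 and 1213 normalized counts in WT and 1028, 1134 and 1084 in hnRNPL-deficient libraries. *Upf3b* (chromosome X, 37091678 to 37110322, minus strand) had 1566, 1447 and 1274 in WT and 1763, 1631 and 1542 in hnRNPL-deficient libraries. The means thus moved in opposite directions, *Upf3a* from 1198 ± 119 to 1082 ± 53.1 and *Upf3b* from 1429 ± 147 to 1645 ± 111, while the groups overlapped for both. Neither passed the test. The log2 fold changes were -0.14 (SE 0.119, limma adjusted p = 0.476) for *Upf3a* and 0.21 (SE 0.118, adjusted p = 0.303) for *Upf3b*. For the X-linked *Upf3b*, the libraries with *Xist* held the lowest WT value and the middle hnRNPL-deficient value.

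SMG1 is a large kinase of the PI3K-related family that phosphorylates UPF1. The gene covers chromosome 7, 118131308 to 118243670, minus strand, and lies 89.3 Mb from *Hnrnpl* on the same chromosome. Its transcript is the longest of the group, with 63 exons, 10974 coding bases and a 3′ UTR of 4233 bases that is longer than in 94.7% of tested coding genes (median 935). The representative transcripts of the 9 factors were searched downstream of the stop codon. Shorter or interrupted CA-rich sites, which the paper scored around skipped exons, were left out, and the motif searched for was CACACACA on the transcript strand. None of the 8 factors with at least 400 bases of 3′ UTR holds the motif in its first 400 bases, where 275 of 8378 such tested genes (3.28%) do. *Smg8*, whose 3′ UTR is 221 bases, has no such window and no match. The single match among the 9 lies in *Smg1*, 3230 bases after the stop codon, and is shown with the match in capitals, 5′ to 3′ on the minus strand, at chr7:118132293-118132322, as the one match in the sequence searched.
Smg1 3′ UTR: ccactcccaatCACACACAgcagatgtcag

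*Smg1* had 22813, 24258 and 24293 normalized counts in WT and 18897, 22564 and 26296 in hnRNPL-deficient libraries. The hnRNPL-deficient values lay on both sides of the tight WT values and were the more spread, with a coefficient of variation of 16.4% against 3.55%. The means were 23788 ± 844 and 22586 ± 3699, a log2 fold change of -0.09 (SE 0.128, limma adjusted p = 0.695). No test of the difference in spread was made with 3 libraries per group.

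SMG8 and SMG9 bind SMG1 and restrain its kinase activity. *Smg8* (chromosome 11, 87077732 to 87086774, minus strand, 4 exons) had 2746, 2677 and 2475 normalized counts in WT and 2944, 2761 and 2352 in hnRNPL-deficient libraries. As for *Smg1*, the hnRNPL-deficient values enclosed the WT values, and the log2 fold change was 0.02 (SE 0.114, limma adjusted p = 0.914). *Smg9* (chromosome 7, 24399619 to 24422778, plus strand, 14 exons) is 4.4 Mb from *Hnrnpl*. It had 787, 1075 and 1003 normalized counts in WT and 1132, 1449 and 1006 in hnRNPL-deficient libraries, so that the lowest hnRNPL-deficient value fell below the highest WT value. *Smg9* had the largest difference of the 9 factors, from 955 ± 150 to 1196 ± 228, or 125% of the WT level. On the log2 scale this was 0.32 (SE 0.174, limma adjusted p = 0.278). It also had the widest interval, 0.95 to 1.64-fold, which leaves room for a change past the 1.5-fold threshold at this number of libraries. Leaving out each library in turn gave log2 fold changes of 0.17 to 0.44. It was 0.17 without hnRNPL-deficient library 2 and 0.19 without WT library 1.

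*Smg9*, *Upf1* and *Smg5* are the NMD factors of highest GC content, with 60.3%, 57.93% and 56.45% in their representative transcripts (median of tested coding genes 50.2%). All 3 were highest in library 2 of both groups, as was *Upf3a* (52.94%). Across 17589 tested genes, the rank correlation of GC content with a library's deviation from the gene's mean was -0.08, 0.22 and 0.25 for WT libraries 1 to 3 and -0.04, 0.16 and -0.32 for hnRNPL-deficient libraries 1 to 3. It is given as a description, since genes share the library. With a correction of each library for GC content and length, the log2 fold change of *Smg9* was 0.37 (adjusted p = 0.0533 from limma, where the other settings gave 0.102 to 0.653), past the adjusted p threshold and short of 1.5-fold.

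The proteins SMG5 and SMG6 act after UPF1 phosphorylation. *Smg5*, the adaptor, lies on chromosome 3, 88336260 to 88362338, plus strand, and had 4675, 6047 and 5834 normalized counts in WT and 5272, 6344 and 5228 in hnRNPL-deficient libraries. The groups overlapped throughout, with a log2 fold change of 0.03 (SE 0.13, limma adjusted p = 0.912). *Smg6*, the endonuclease, lies on chromosome 11, 74925823 to 75164448, plus strand, and had 3241, 3589 and 3607 normalized counts in WT and 3613, 4148 and 4431 in hnRNPL-deficient libraries. It was the one factor whose groups did not overlap, by a gap of a few counts between hnRNPL-deficient library 1 and WT library 3. The means were 3479 ± 206 and 4064 ± 415, and the log2 fold change was 0.22 (SE 0.109, limma adjusted p = 0.231). *Srr*, on the opposite strand, shares 126 exonic bases with *Smg6*, and reads were counted by strand.

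Levels of different transcripts were compared as normalized counts per kb of exonic sequence, since longer genes collect more reads. *Upf1* was the most abundant factor, with 1682 to 2298 per kb over the 6 libraries, above 90.2% of 11560 tested coding genes. A middle tier held *Smg1* (788 to 1096 per kb), *Upf2* (914 to 1025), *Smg8* (731 to 915) and *Smg5* (672 to 912), neighbours whose ranges overlap. *Smg6* (383 to 524), *Upf3b* (319 to 441), *Smg9* (213 to 391) and *Upf3a* (175 to 223) formed the lower tier. There too each overlapped its neighbour, and *Upf3a* lay above 40.3% of tested coding genes. By exonic length *Upf1* did not overlap the middle tier, nor the middle tier the lower one. Exonic length counts every annotated exon of a gene, so it understates genes with many rarely used exons. These gaps closed per kb of the representative transcript, where the highest *Smg1* value (1690.3) passed the lowest *Upf1* value (1682) and the highest *Smg6* (758) and *Upf3b* (752) values passed the lowest *Smg8* value (731). By that length the WT means of *Upf1* (1943), *Smg1* (1529) and *Smg5* (1241) led, and *Smg9* (426) was lowest, below *Upf3a* (582), *Smg6* (595) and *Upf3b* (610).

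**Figure D3:**
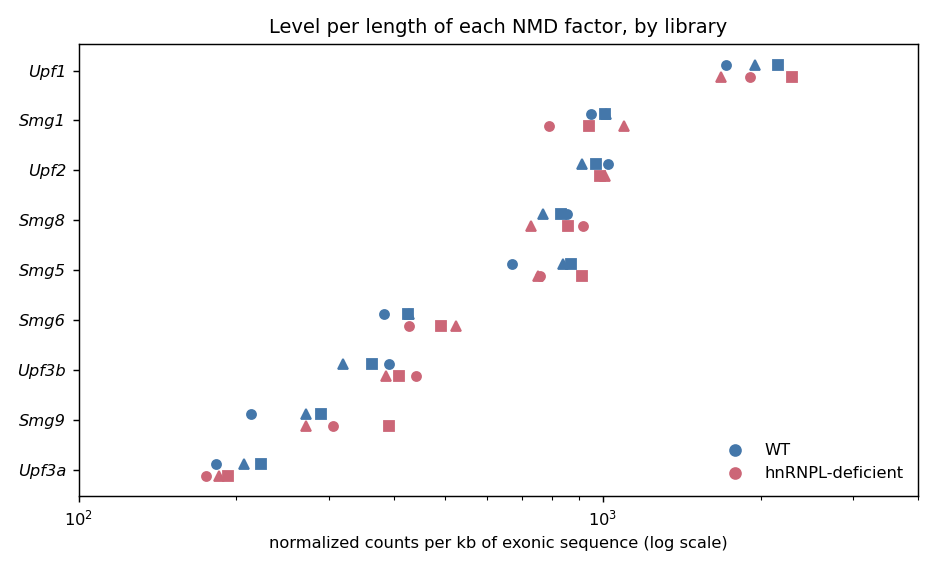
Normalized counts per kb of exonic sequence (horizontal log axis) of the 9 NMD factors in WT (blue) and hnRNPL-deficient (red) libraries, with circles, squares and triangles for replicates 1, 2 and 3. *Upf1* stands at 1682 to 2298, 4 factors lie between 672 and 1096, and the other 4 between 175 and 524.

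Ratios of partner transcripts within a library do not depend on the size factor, and 5 were compared with 2-sided exact permutation tests, which cannot give a p below 0.1 with 3 libraries against 3. The ratio of *Upf3a* to *Upf3b* was 0.685, 0.905 and 0.952 in WT and 0.583, 0.695 and 0.703 in hnRNPL-deficient libraries. Its mean went from 0.847 ± 0.143 to 0.661 ± 0.0672, a log2 difference of -0.35 (exact permutation p = 0.3, 0.5 after Benjamini-Hochberg adjustment over the 5 ratios). One WT library lay within the hnRNPL-deficient range. The ratio of *Smg9* to *Smg1* was 0.0345, 0.0443 and 0.0413 in WT and 0.0599, 0.0642 and 0.0383 in hnRNPL-deficient libraries. Although 2 of the 3 hnRNPL-deficient values were above all WT values, the remaining one was below 2 of them, and the log2 difference of 0.41 had an exact permutation p of 0.3 (adjusted 0.5). *Smg6* to *Smg5* went from 0.635 ± 0.052 to 0.729 ± 0.104, a log2 difference of 0.19 (exact permutation p = 0.3, adjusted 0.5). *Smg8* to *Smg1* (0.111 ± 0.00924 and 0.123 ± 0.0332, exact permutation p = 0.7, adjusted 0.875) and *Upf2* to *Upf1* (0.599 ± 0.0951 and 0.612 ± 0.101, exact permutation p = 0.9, adjusted 0.9) differed less. All 5 ratios overlapped between the groups.

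**Figure D4:**
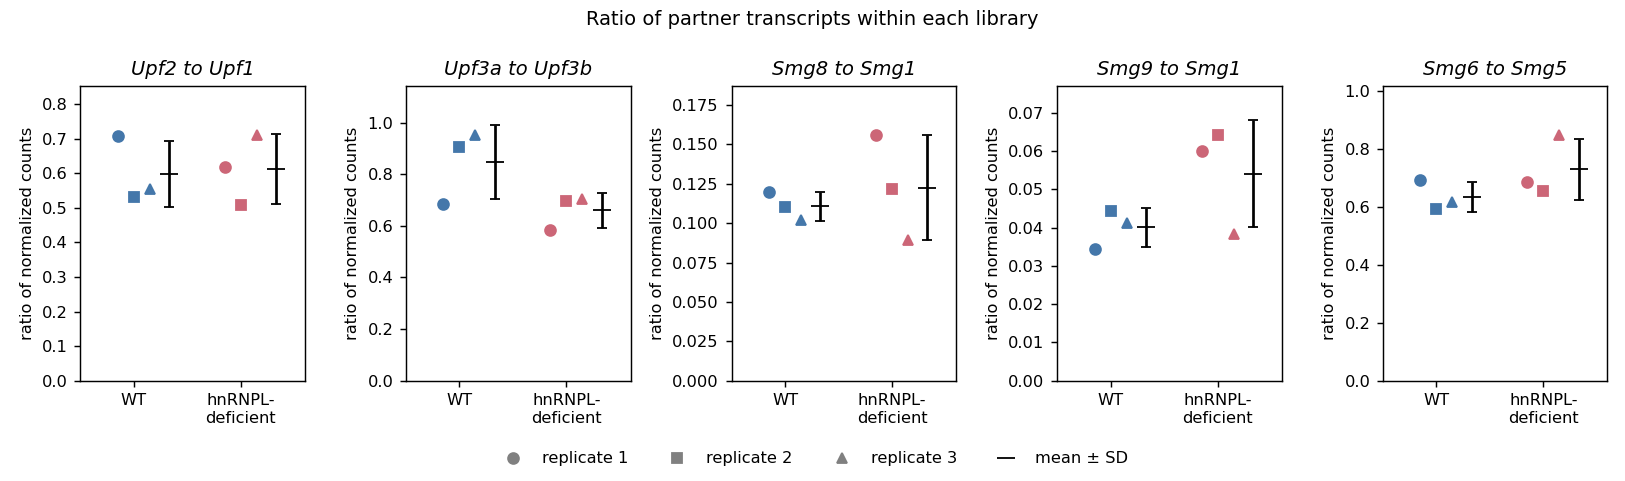
Ratio of normalized counts of 5 pairs of partner transcripts in each WT (blue) and hnRNPL-deficient (red) library, on vertical axes that start at 0, with marker shapes for replicate number and bars for mean ± SD. In each panel at least 1 library of one group lies within the range of the other, also for *Upf3a* to *Upf3b*, where the means are 0.847 and 0.661.

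The genes whose pattern over the 6 libraries was most like the mean pattern of the 9 factors were *Adck5*, *Ranbp10*, *Mri1*, *Dpm2* and *Mdc1*, with Pearson's r of 0.9794 to 0.9835 over 6 libraries. Of the 12383 genes that averaged 100 or more normalized counts, 275 had an r over 0.9, so a likeness of this size was common. The mean pattern itself was lowest in WT library 1 (-0.113 on the log2 scale from each gene's mean) and highest in hnRNPL-deficient library 2 (0.129). Within each group it was highest in library 2.

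Among 6 further NMD factors, limma called 0 (11.4% of all genes), with 3 at an unadjusted p under 0.05 (27.4% of all genes), and edgeR and DESeq2 called 0. Their median log2 fold change was 0.03, with 3 negative and 3 positive. *Pnrc2*, which links phosphorylated UPF1 to decapping, had 4303, 3847 and 3544 normalized counts in WT and 6093, 4689 and 5079.6 in hnRNPL-deficient libraries, all above WT. Its log2 fold change of 0.44 (SE 0.126, limma adjusted p = 0.0602) passed the adjusted p threshold and fell short of 1.5-fold. Leaving out any library other than WT library 1 or hnRNPL-deficient library 2 raised its adjusted p to between 0.101 and 0.195. It was 0.137 without a mean-variance trend, and 0.237 with the GC and length correction, which lowered the log2 fold change to 0.26. The adjusted p stayed under the threshold with edgeR (0.0384) and DESeq2 (0.0105). So it did with limma under the replicate block (0.00986), quantile normalization (0.0214), scaling to equal totals (0.026) and *Xist* as a covariate (0.0463). *Ruvbl1*, an ATPase reported to act with SMG1, had a log2 fold change of -0.33 (adjusted p = 0.171 from limma), and its partner *Ruvbl2*, the most abundant of the 6, -0.27 (adjusted p = 0.116 from limma).

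The exon junction complex marks spliced junctions for UPF3B. Of its 9 genes limma called 0 (11.4% of all genes), with 2 at an unadjusted p under 0.05, a share near the 27.4% of all genes, and edgeR and DESeq2 called 0. The median log2 fold change was -0.18, with 7 of 9 negative, as were 52.7% of all genes. *Eif4a3*, the helicase that anchors the complex, had a log2 fold change of -0.30 (adjusted p = 0.121), *Sap18* -0.28 (adjusted p = 0.169) and *Rnps1* -0.17 (adjusted p = 0.3, all from limma).

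Of 7 tested genes of translation termination and cap binding limma called 0 (11.4% of all genes), with 3 at an unadjusted p under 0.05 (27.4% of all genes), and edgeR and DESeq2 called 0. The median log2 fold change was -0.27. *Gspt1*, which encodes the release factor eRF3a that interacts with UPF1 at the stop codon, had 24818, 21908 and 20968 normalized counts in WT and 17157, 16543 and 15610.3 in hnRNPL-deficient libraries. All hnRNPL-deficient values were below all WT values. The log2 fold change was -0.45 (SE 0.101, limma adjusted p = 0.0244), past the adjusted p threshold and under 1.5-fold. *Etf1*, the release factor that reads the stop codon, had a log2 fold change of -0.42 (adjusted p = 0.127) and *Pabpc1*, the cytoplasmic poly(A) binding protein, -0.35 (adjusted p = 0.129, both from limma). The eighth gene, *Gspt2*, was too low to be tested in the main fit. It had 0.865 to 2.29 normalized counts in WT and 8.08 to 22.5 in hnRNPL-deficient libraries.

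Decapping, deadenylation and 5′ to 3′ decay genes, which act downstream of SMG5, showed no common direction. limma called 0 of 16 (11.4% of all genes), with 3 at an unadjusted p under 0.05 (27.4% of all genes), edgeR and DESeq2 called 0, and 8 log2 fold changes were negative and 8 positive (median -3.2e-05). The decapping enzyme *Dcp2* had -0.32 (adjusted p = 0.135), its cofactor *Dcp1b* 0.31 (adjusted p = 0.164) and the helicase *Ddx6*, the most abundant of the list, -0.10 (adjusted p = 0.622, all from limma).

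Transcripts widely used as NMD substrates in other cells were examined because they accumulate when NMD fails. Of 14 tested, limma called 0 higher (7.28% of all genes) and 1 lower (4.08% of all genes). The median log2 fold change was -0.14, with 10 negative and 4 positive (52.7% of all genes negative). *Atf3*, a stress-induced transcription factor, was the one called, with 729, 750 and 639 normalized counts in WT and 472, 326 and 472 in hnRNPL-deficient libraries. All hnRNPL-deficient values were below all WT values, at a log2 fold change of -0.75 (SE 0.178, limma adjusted p = 0.0309). The call was lost when WT library 2 was left out (-0.71, limma adjusted p = 0.103) or hnRNPL-deficient library 2 (-0.58, adjusted p = 0.0697, short of 1.5-fold). edgeR (-0.54, adjusted p = 0.0756) and DESeq2 (-0.57, adjusted p = 0.0123) were run without that same hnRNPL-deficient library 2, so their values are no separate loss of the call. *Snhg12*, a snoRNA host gene, had 735, 951 and 871 against 569, 608 and 530, a log2 fold change of -0.58 (SE 0.141, limma adjusted p = 0.0349) just under 1.5-fold. Without hnRNPL-deficient library 2 it was called lower by limma (-0.62), edgeR (-0.60) and DESeq2 (-0.62), all on the same 5 libraries. It was also called lower without WT library 1 (-0.68, limma adjusted p = 0.0256). Its limma adjusted p rose past the threshold without WT library 2 (-0.49, 0.134) or WT library 3 (-0.56, 0.128). *Atf4*, whose upstream open reading frames make it an NMD substrate, had a log2 fold change of -0.15 (adjusted p = 0.469 from limma). The 4 positive substrates, named after their values were seen, did not pass the test in the main fit. *Arc* had a log2 fold change of 0.54 (adjusted p = 0.352), *Ddit3* 0.52 (adjusted p = 0.203), *Gadd45a* 0.45 (adjusted p = 0.22) and *Nat9* 0.35 (adjusted p = 0.352, all from limma). The hnRNPL-deficient values lay above all WT values for *Arc*, *Ddit3* and *Gadd45a*, with 376, 435 and 514 against 212, 357 and 374 normalized counts for *Ddit3*. They lay below all WT values for *Atf3*, *Snhg12* and *Zfas1*, the last with a log2 fold change of -0.41 (limma adjusted p = 0.115). Of all genes tested, 34.0% had groups that did not overlap. *Upp1* had 0 reads in every library. These mRNAs also respond to transcription and stress, and the table gives amounts per gene, not per isoform, so NMD activity itself was not measured.

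**Figure D5:**
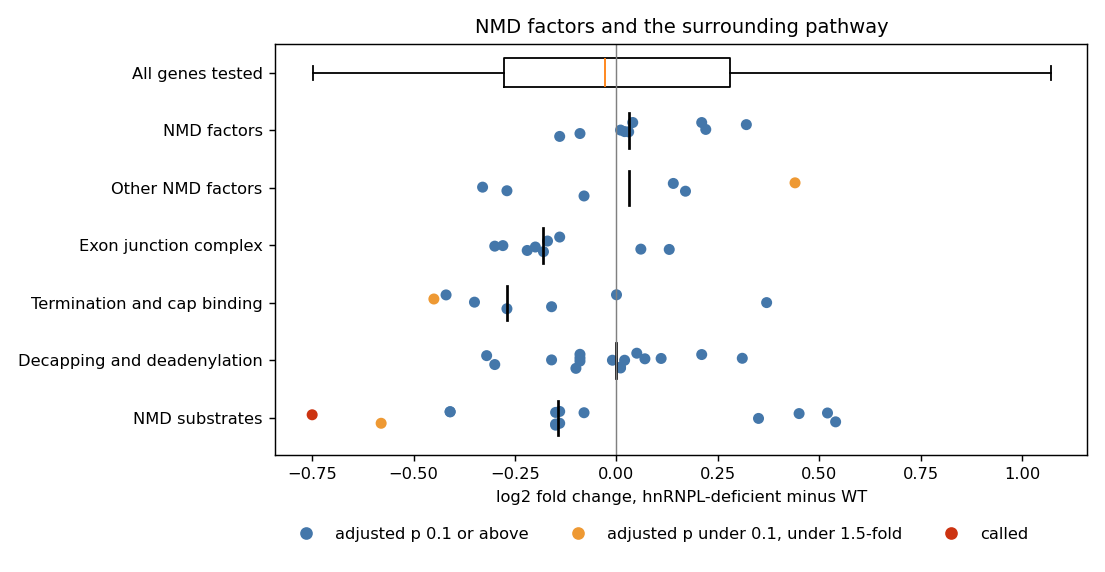
Log2 fold change, hnRNPL-deficient minus WT, of each gene of the NMD factors and of 5 lists of related genes (points, coloured by whether they passed the adjusted p of 0.1 and the 1.5-fold threshold; black bars are medians), under a box of all 17640 genes tested (median, quartiles, and whiskers that span the middle 90% of genes). The NMD factors lie between -0.14 and 0.32, and the one called gene of any list is *Atf3* at -0.75.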

How the data were processed

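The authors trimmed reads with fastp 0.23.1, aligned them with STAR 2.7.9a to mm10, counted them per gene by strand with featureCounts on GENCODE vM23, and deposited counts divided by DESeq2 (1.38.2) size factors, a signal per gene and library. The deposited table also holds the authors' own fold changes and p-values, which were not used.

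All values were whole multiples of 1 read (100% within 0.01 reads), with 40395186 to 75180749 reads per library. limma 3.58.1 (R 4.3.3) was fitted with a mean-variance trend to log2(value + 1) of the 17640 genes averaging 10 or more. Adjusted p is Benjamini-Hochberg over these genes. edgeR 4.0.16 (quasi-likelihood, TMM) and DESeq2 1.42.0 were run on recovered reads of 5 libraries, since the column of hnRNPL-deficient library 2, where 1 read is worth about 1, could not be read by the automatic test. Coordinates, lengths and sequence come from GENCODE vM21 (GRCm38), matched by identifier.

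The members and gene lists were chosen with earlier results of these data known. Every member is named, and of each list the called genes, the 2 of largest absolute change and the most abundant one. One gene planned for the list of further NMD factors is not reported here. *Srr*, *Gspt2*, *Zfas1* and the positive NMD substrates were named after their values were seen. Replicates are separate libraries, and p-values measure the spread between them. The replicate numbers were not taken as pairs in the main fit. Same-numbered libraries of the 2 groups deviated together with correlations of 0.429, 0.32 and 0.066. Each was the highest of that hnRNPL-deficient library with any WT library. Whether the numbers mark pairs was not tested, and a fit with the replicate number as a block is given as an alternative. Alternatives were pseudocounts of 0.5 and 5, other filters, scaling and variance settings, the replicate block, *Xist* as a covariate, each library left out and other thresholds. The GC and length correction was added after seeing the data. Splicing was not analysed here.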

Additional observations from a re-analysis of the deposited data

How the results depend on the processing

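No NMD factor was called under any of the 20 alternatives. At an adjusted p under 0.1 whatever the fold, 1 passed with the replicate block (*Smg6*, adjusted p = 0.0846 from limma) and 1 with the GC and length correction (*Smg9*). *Upf3a* stayed negative and *Upf3b*, *Smg9* and *Smg6* positive under all alternatives run. The 5 factors with the smallest changes turned direction in some. *Upf1* was -0.00059 with the *Xist* covariate. On the 5 libraries without hnRNPL-deficient library 2, *Upf1* was -0.11 by limma, -0.08 by edgeR and -0.1 by DESeq2, and *Smg5* -0.06, -0.04 and -0.06, so the tool and the libraries changed together there. *Smg1* was 0.07 with quantile normalization. *Upf2* was -0.1 and *Smg8* -0.0049 with the GC and length correction.

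Leaving out each library in turn gave -0.11 to 0.11 for *Upf1*, -0.0032 to 0.08 for *Upf2*, -0.2 to 0.03 for *Smg1*, -0.05 to 0.12 for *Smg8* and -0.09 to 0.1 for *Smg5*. It gave medians of 0.00059 to 0.11 for the NMD factors, -0.29 to -0.1 for the exon junction complex and -0.07 to 0.0083 for decapping. The NMD substrates called lower ranged from 0 (without WT library 2) to 2, the genes called higher from 830 to 1111 and those called lower from 478 to 696, with the lowest counts without WT library 3, as against 1284 and 719. The log2 ratio differences ranged from -0.08 to 0.16 (*Upf2* to *Upf1*) and from -0.08 to 0.32 (*Smg8* to *Smg1*).

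Quantile normalization gave medians of 0.13 for the NMD factors and 0.07 for decapping, a difference of -0.00096 in the *Upf2* to *Upf1* ratio, and log2 fold changes of 0.04 for *Ddx6* and 0.0058 for *Atf4*. Scaling to equal totals gave 0.06 for the decapping median, and edgeR 0.0055 for *Ddx6*. The decapping median was -0.16 with the GC and length correction. *Dcp2*, *Etf1*, *Pabpc1* and *Sap18* passed the adjusted p threshold with this correction (0.0469 to 0.0785 from limma), at less than 1.5-fold. *Pabpc1* passed it also with quantile normalization (0.073), scaling to equal totals (0.0957) and a robust variance setting (0.0864, all from limma). *Ruvbl1* passed it with DESeq2 on 5 libraries (-0.41, adjusted p = 0.08). The NMD substrates called lower were 2 with quantile normalization, with the GC and length correction and at an adjusted p under 0.1 whatever the fold. Under that threshold 1 other NMD factor was higher (*Pnrc2*) and 1 termination gene lower (*Gspt1*). Without a filter on low values 1 termination gene was called higher, *Gspt2*, which that filter had left out of the main fit. At an adjusted p under 0.05 and 2-fold, 610 genes were higher and 216 lower.

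The replicate block raised the genes called to 1755 higher and 1018 lower. Each hnRNPL-deficient library correlated best with the WT library of its own number, library 3 narrowly (0.066, beside 0.05 with WT library 1). WT library 3 did not, with 0.305 for hnRNPL-deficient library 2 and 0.066 for library 3. Under the block *Ruvbl1*, *Ruvbl2*, *Eif4a3*, *Sap18*, *Etf1*, *Pabpc1*, *Dcp2* and *Dcp1b* also passed the adjusted p threshold (0.0091 to 0.0567 from limma), at less than 1.5-fold. So did the NMD substrate *Ddit3*, which was higher in hnRNPL-deficient cells (0.52, adjusted p = 0.041 from limma). With 3 libraries per group the intervals leave room for changes of the NMD factors below 1.5-fold, and for *Smg9* above it. The causes of these differences were not tested.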
